A study of Mus musculus with 24 samples.

Results

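Passively coping stressed mice and unstressed controls were compared in the prefrontal cortex (PFC) after both had received dexamethasone (DEX), a synthetic glucocorticoid. The comparison used 8 of the 24 libraries of the series, all the libraries labelled with these groups: 4 from PS animals and 4 from control animals, each from 1 male C57BL/6 mouse. PS animals had been through 30 days of social defeat by aggressive CD1 males and were classed as passive copers from their behaviour during non-aggressive contact, in which freezing prevailed. Controls were not defeated and were housed individually before the experiment. All 8 animals were killed 6 h after 2 mg/kg DEX, so that the drug was present on both sides of the comparison. The other 16 libraries were control and PS animals injected with saline and actively coping (AS) defeated animals with saline or DEX, 4 in each group. Housing with a CD1 neighbour and defeat came together in PS animals and cannot be told apart.

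DEX binds the glucocorticoid receptor, a transcription factor that chaperones of the Hsp90 family hold in the cytoplasm until the hormone arrives. The receptor then enters the nucleus, where it induces its own brakes, such as Fkbp5, and represses many inflammatory genes. In the brain the endothelial cells of the vessels face the blood and form a barrier that keeps part of the DEX out of the tissue behind it.

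The deposited values were gene counts divided by a size factor of each library, called normalized counts here, and all of them came out as whole reads (within 0.01 read) once that factor was undone. The DEX-treated controls had 21252256 to 24086770 recovered reads on genes, and the DEX-treated PS animals had 22253648 to 32055506. Of the 14074 genes in the table, the 14060 genes that the authors had tested were used. Changes are differences of log2(normalized count + 1), called log2 fold changes, from 1 limma model over all 24 libraries, and DEGs are genes whose p, adjusted by Benjamini-Hochberg, lay under 0.1. This scale understates the change of genes with low counts.

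Among the 8 libraries, 2 stood apart from their groups. PS mouse 34 had the lowest correlation with its own group (mean Pearson r across genes of 0.984, against 0.99 to 0.992 in the other PS animals) and was the most deeply sequenced of the 8. It also carried transcripts of the olfactory bulb, which borders the frontal cortex: Cdhr1, a mitral cell cadherin, had 2021 normalized counts in this mouse, 85.0, 88.1 and 93.1 in the other PS animals and 172, 113, 110 and 513.5 in the controls 101, 108, 112 and 122. Among the controls, mouse 122 had the most of these transcripts, with a summed olfactory bulb list of 1249 normalized counts against 256 to 427 in the other 3, and 4221 in PS mouse 34. Control mouse 101 had the lowest correlation among the controls (0.989 against 0.991 to 0.994). Its percentage of reads on mitochondrially encoded genes was the highest of the 8, at 6.93%. This percentage was 5.87% ± 0.770 (SD, n = 4) in controls and 4.76% ± 0.359 in PS, a difference that did not pass in an exact two-sided permutation test over the libraries (p = 0.0571; the smallest p this design allows is 0.0286). No 2 libraries of a group agreed within sampling noise. The part of tissue composition in the results below was not tested, and in whole tissue fewer cells of a type and less RNA per cell cannot be told apart.

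The drug labels were checked first on glucocorticoid-induced genes. Fkbp5, which encodes a co-chaperone that lowers the receptor's affinity for hormone, had 4198, 3908, 3447 and 3727 normalized counts in the DEX-treated controls and 3774, 3316, 3765 and 3271 in the DEX-treated PS animals. The saline means were 796 in controls and 881 in PS, far below every DEX-treated animal. PS and control animals overlapped under DEX (log2 fold change -0.11, SE 0.11, 95% interval -0.33 to 0.11, limma adjusted p = 0.671). Tsc22d3, which encodes the anti-inflammatory protein GILZ, had a PS against control log2 fold change of -0.02 (interval -0.21 to 0.17). Sgk1, a kinase that controls ion transport, had one of -0.02 (interval -0.23 to 0.20). The sign of the difference turned for Tsc22d3, Sgk1 and Nr3c1, described next, when single libraries were left out. Neither Nr3c1, the glucocorticoid receptor gene, nor Nr3c2, which encodes the mineralocorticoid receptor, passed the threshold, with log2 fold changes of 0.08 and -0.08. Neither did Per1, a clock gene with glucocorticoid response elements (-0.09). Of 24 listed targets of the receptor, 0 passed, and 4 were lower and 2 higher at an unadjusted p under 0.05, beside 6.81% and 7.2% of all genes tested. Their median log2 fold change was -0.06, beside -0.00427 over all genes tested, and was -0.11 without control mouse 112 and -0.03 without control mouse 122. A missed threshold does not show equal responses, and these intervals bound the differences.

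Under DEX, 29 genes passed the threshold between PS and control animals, which was 0.206% of the genes tested. Of these, 21 rose in PS (0.149% of the genes tested) and 8 fell (0.0569%). Which direction prevailed rested on single animals. Without PS mouse 56 there were 60 rises and 146 falls, and without control mouse 112 there were 118 rises and 146 falls. In the reported model, pseudogenes made up 13 of the 29 calls and 2.85% of the genes tested, and all 13 rose. The remaining calls were 14 genes annotated as protein-coding, split evenly into 7 rises and 7 falls, and 2 lncRNAs. In 27 of the 29 genes the 4 PS values did not overlap the 4 control values, beside 4.26% of all genes tested that lay entirely higher and 3.01% entirely lower. Only 5 of the 29 had an adjusted p under 0.05.

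The number of calls rested on single animals and on the model. It was 3 without PS mouse 34, 6 without PS mouse 6, 206 without PS mouse 56 and 33 without PS mouse 52. It was 19, 8, 264 and 3 without control mice 101, 108, 112 and 122. The pseudogenes Gm10052 and Gm15459 passed in all 8 of these fits, and no other gene did. A model of the 8 libraries alone called 0 genes, with 1842 genes at an unadjusted p under 0.05 where the reported model had 1971. On the recovered reads edgeR called 17 genes, all among the 29, and DESeq2 called 221, which held all 29. Among protein-coding genes alone, an alternative chosen after the data were seen, limma called 0 genes, with 1765 at an unadjusted p under 0.05. The direction of the 25 called genes followed, those named here other than Gm12254, was the same in each of these settings.

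**Figure D1:**
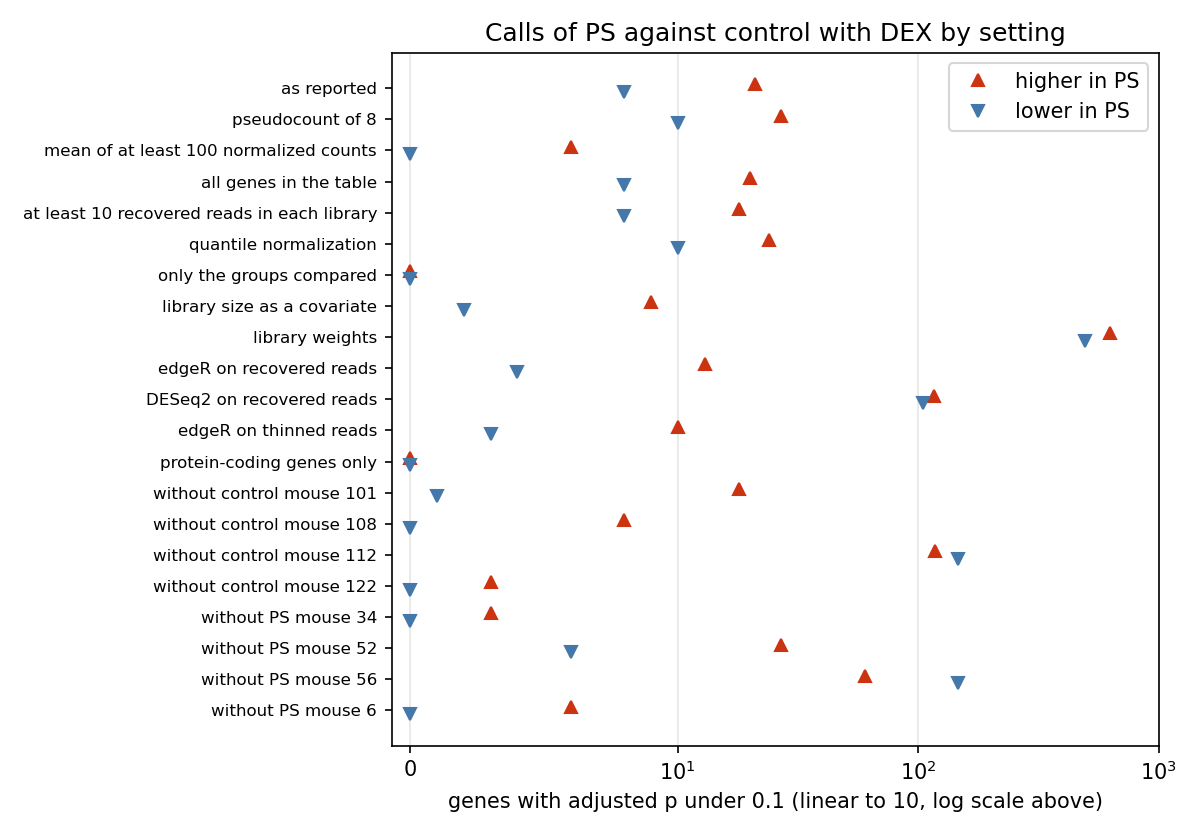
Number of genes with an adjusted p under 0.1 (x axis, linear to 10 and on a log scale above) that were higher (upward triangles) or lower (downward triangles) in PS than in control animals with DEX, for the reported model, for each alternative and with each of the 8 mice left out. The reported model gave 21 rises and 8 falls, and the alternatives ran from 0 calls to 626 rises and 495 falls with library weights.

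Of the 8 genes that fell in PS under DEX, Slc2a1 was the 1 that is on the endothelial list used here, and 0 are on the list of pericyte and smooth muscle genes. Slc2a1, the glucose transporter of the blood-brain barrier (chromosome 4, 119108711 to 119137983, mm10), had 5572, 4497, 4266 and 4745 normalized counts in controls and 2560, 2789, 3908 and 3238 in PS. All 4 PS animals lay below all 4 controls, with mouse 56 nearest to them, and the log2 fold change was -0.62 (SE 0.13, adjusted p = 0.0718). With saline the means had been 2698 in controls and 2288 in PS. With 1 animal left out, Slc2a1 passed only without control mouse 112 or without PS mouse 56, and its adjusted p was 0.198 without control mouse 101 and 0.217 without PS mouse 34.

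Stra6, the membrane receptor for retinol-binding protein that brings vitamin A across blood-tissue barriers, had 494, 371, 348 and 333 normalized counts in controls and 125, 223, 304 and 180 in PS. The groups did not overlap, and the log2 fold change of -0.95 (SE 0.21, adjusted p = 0.0767) was the largest fall among the called protein-coding genes. Stra6 overlaps Ccdc33 on the opposite strand and Gm16131 on its own, so part of its counts is uncertain. Gpr4, a proton-sensing receptor of endothelial cells, had 205, 172, 164 and 165 in controls and 57.7, 126, 113 and 88.2 in PS. Its log2 fold change was -0.92 (SE 0.20, adjusted p = 0.0824), with PS mouse 34 lowest. Igfbp3, a carrier of insulin-like growth factors, had 582, 476, 410 and 480 in controls against 316, 316, 404 and 316 in PS. The PS values of Igfbp3 in mice 34, 52 and 6 were nearly the same and that of mouse 56 lay just under the lowest control (log2 fold change -0.52, SE 0.11, adjusted p = 0.0718).

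A pair of called genes act in inflammation. Tgfb1, the cytokine that microglia depend on, had 276, 217, 185 and 240 normalized counts in controls and 141, 152, 183 and 159 in PS (log2 fold change -0.52, SE 0.11, adjusted p = 0.0718). The groups nearly touched, between control mouse 112 and PS mouse 56. Zfp36, which encodes tristetraprolin, a protein that promotes decay of cytokine mRNAs, had 158, 146, 126 and 107 in controls and 59.5, 77.7, 96.8 and 74.7 in PS (log2 fold change -0.80, SE 0.17, adjusted p = 0.0766). The saline means of Zfp36 were 76.9 in controls and 85.2 in PS, so that the PS animals with DEX were near the saline levels and the controls with DEX were above them.

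Trp53inp2, which takes part in autophagy, fell by the smallest amount among the 29. It had 4197, 4698, 4367 and 4467 normalized counts in controls and 3693, 3953, 3645 and 3735 in PS (log2 fold change -0.24, SE 0.05, adjusted p = 0.0718). The lncRNA A330048O09Rik had 47.0, 44.6, 33.4 and 31.4 in controls and 22.4, 17, 17.4 and 20.8 in PS (log2 fold change -0.96, SE 0.19, adjusted p = 0.0642). Next in order of p among genes whose groups did not overlap were Ramp2, the partner of the adrenomedullin receptor in vessels (-0.57, adjusted p = 0.103), and Ecm1, a secreted matrix protein (-0.48). After them came Fgf1, a fibroblast growth factor (-0.30), the astrocytic zinc transporter gene Slc39a12 (-0.31) and Zdhhc8, a palmitoyltransferase gene (-0.29). Each of these last 4 genes had an adjusted p of 0.118 and none of the 5 passed the threshold.

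Marker genes of the vessel wall were followed as lists. Of 15 endothelial genes, 1 passed the threshold (Slc2a1), all 15 had a negative log2 fold change and the median was -0.55, with a range from -0.74 to -0.28. Without PS mouse 56, 6 of them passed, without control mouse 112 or by DESeq2, 2 passed, and in each of the other 6 fits that left out 1 animal 0 passed. Over all 14060 genes tested, the genes called lower were 146 without PS mouse 56, 146 without control mouse 112 and 105 by DESeq2. With library weights 1 of the 15 passed and the median was -0.33. In the reported model, 13 of the 15 were lower in PS at an unadjusted p under 0.05, beside 6.81% of all genes tested. Cdh5, the VE-cadherin of endothelial junctions, had 769, 556, 441 and 645 normalized counts in controls and 205, 364, 560 and 369 in PS. The groups overlapped through PS mouse 56 (-0.74, adjusted p = 0.165). Ly6c1, a surface protein of brain endothelium, ran from 770 to 1209 in controls and from 437 to 735 in PS, without overlap (-0.72, adjusted p = 0.205).

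Of 11 genes of pericytes and smooth muscle, 0 passed, the median was -0.51 with 9 genes below 0 and 2 above it, and 8 were lower at an unadjusted p under 0.05, beside 6.81% of all genes tested. That count was 4 without PS mouse 34 and 5 without PS mouse 52. Without PS mouse 56, 6 of the 11 passed, and 1 passed without control mouse 112, by DESeq2 and with library weights. In these fits 146, 146, 105 and 495 of all 14060 genes tested passed as lower. Rgs5, the most abundant of them and a regulator of G protein signalling in pericytes, had 3992, 3062, 2646 and 3047 in controls and 1252, 1810, 2961 and 2211 in PS (-0.68, adjusted p = 0.236). Acta2, the smooth muscle actin, had 270, 237, 131 and 196 in controls and 48.3, 91.1, 186 and 84.5 in PS (-1.13, adjusted p = 0.208). Pdgfrb, the receptor that recruits pericytes, had a log2 fold change of -0.40 and Mylk, the kinase of myosin light chain, one of -0.51. In all 4 of these mural genes the groups overlapped.

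Among 18 genes of VEGF, angiopoietin and Notch signalling, 0 passed, the median was -0.39 with 15 genes below 0 and 3 above it, and 9 were lower at an unadjusted p under 0.05, beside 6.81% of all genes tested. That count was 5 without PS mouse 34 and 6 without control mouse 101. Without PS mouse 56, 4 passed, and 2 passed without control mouse 112, by DESeq2 and with library weights. The genes that passed as lower over all 14060 tested were 146, 146, 105 and 495 in these fits. The ligand Vegfa, which astrocytes and neurons also make, differed least among those named (-0.10, adjusted p = 0.597). Eng, the endothelial co-receptor endoglin, had 991, 741, 704 and 891 normalized counts in controls and 426, 422, 769 and 527 in PS, with mouse 56 within the control range (-0.66, adjusted p = 0.136). Notch4, the Notch receptor of endothelium, had a log2 fold change of -0.57 (adjusted p = 0.145), and Notch1 had one of -0.45 (0.213).

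The cells that surround the cortex showed values of the same sign. Of 11 leptomeningeal fibroblast genes, all had a negative log2 fold change, 0 passed, the median was -0.63 and 6 were lower at an unadjusted p under 0.05, beside 6.81% of all genes tested. Ptgds, the prostaglandin D synthase of the meninges, had 47898, 36955, 28519 and 35727 normalized counts in controls and 15174, 22284, 42132 and 22182 in PS (-0.63, adjusted p = 0.294), with mouse 56 within the control range. Slc47a1, an exporter of organic cations, had a log2 fold change of -1.04, and Slc6a13, a GABA transporter of the leptomeninges, had one of -0.73. For border macrophages, Mrc1, the mannose receptor, had 283, 241, 255 and 264 in controls and 70.7, 180, 277 and 146 in PS (-0.78, adjusted p = 0.260). Lyve1, a hyaluronan receptor of perivascular macrophages, did not overlap between the groups, with 95.1 to 108 in controls and 56.3 to 91.4 in PS (-0.58, adjusted p = 0.213).

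These lists placed the same animals at their ends. The mean centred log2 level of the endothelial list was 0.67, 0.31, 0.13 and 0.35 in the controls and -0.70, -0.20, 0.29 and -0.05 in the PS animals 34, 52, 56 and 6. The highest control was mouse 101 and the lowest PS animal was mouse 34, the 2 libraries that stood apart, and PS mouse 56 lay above control mouse 112. The pericyte and smooth muscle list ran in the same order at its ends, from 0.70 in control mouse 101 to -0.69 in PS mouse 34, and the leptomeningeal list from 0.61 to -1.33. Without PS mouse 34, 5 of 15 endothelial genes were lower at an unadjusted p under 0.05 and the median was -0.32, and without control mouse 101 the values were 6 genes and -0.44. Over all 14060 genes tested, 801 and 595 were lower at that p in these 2 settings, where the reported model had 958. For the leptomeningeal list these 2 settings gave 0 and 1 of 11 genes, with medians of -0.34 and -0.50, where the reported model had 6. Without PS mouse 56, 10 of the 11 were lower at that p and 3 passed, and edgeR and DESeq2 gave 3 and 2 genes lower at that p. In the fit without PS mouse 56, 146 of all 14060 genes tested passed as lower. With library weights the leptomeningeal median was -0.38, with 2 genes lower at that p. The part of the amount of vessel and meninges in each sample was not tested.

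**Figure D2:**
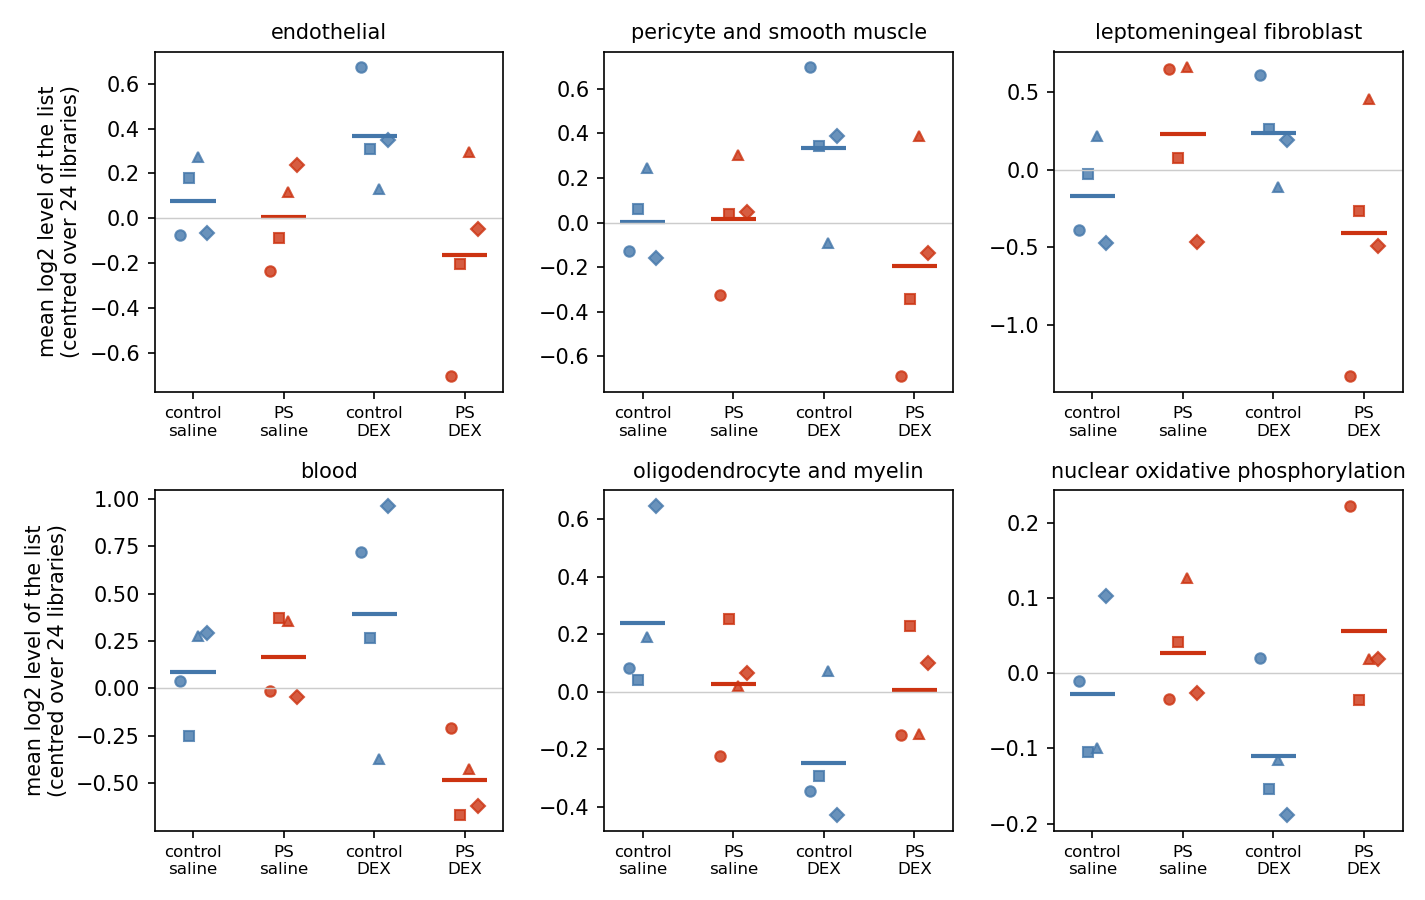
Mean level of 6 gene lists in each library of 4 groups (y axis, log2 of normalized count + 1, centred per gene over the 24 libraries), with 1 point per mouse and a bar at the mean of 4 mice. In the endothelial, pericyte and leptomeningeal panels the DEX-treated PS animals reach from the lowest value of all, -0.70, -0.69 and -1.33 in mouse 34, up to the range of the controls in mouse 56.

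Of 6 blood genes, 0 passed and the median was -1.04, and 5 were lower and 1 higher at an unadjusted p under 0.05, beside 6.81% and 7.2% of all genes tested. Without control mouse 122, 3 were lower and 0 higher at that p. Without control mouse 112, 5 passed as lower, and 3 passed by DESeq2 and 4 with library weights. In these fits 146, 105 and 495 of all 14060 genes tested passed as lower. The adult alpha-globin gene Hba-a1 had 1356, 898, 628 and 1480 normalized counts in controls and 676, 396, 497 and 412 in PS (-1.09, adjusted p = 0.147). Its near copy Hba-a2 had a log2 fold change of -1.31, and the beta-globin gene Hbb-bs one of -1.02. Control mouse 112, which was also low in vessel genes, overlapped PS mouse 34 in all 3 globin genes. Globin mRNA in brain tissue comes mostly from red cells in the vessels, and the part of residual blood was not tested.

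Immune genes were described through 3 lists, with 0 called genes in the reported model. The median of 14 antigen presentation genes was -0.38, with 6 lower and 1 higher at an unadjusted p under 0.05, beside 6.81% and 7.2% of all genes tested. With single animals left out the count of lower genes ran from 3 (without control mouse 101) to 9 (without control mouse 108 or 112 or PS mouse 56). It was 4 without control mouse 122, PS mouse 34 or PS mouse 52. Without PS mouse 56, 2 passed, and with library weights 4 passed as lower and 1 as higher. Over all 14060 genes tested, 146 passed as lower without PS mouse 56, and 495 as lower and 626 as higher with library weights. The median of the list with library weights was -0.21. B2m, the light chain of all MHC class I molecules, had 2697, 2167, 2069 and 2379 normalized counts in controls and 1842, 1772, 2050 and 1616 in PS, without overlap (-0.35, SE 0.11, adjusted p = 0.190). The class I genes H2-Q4 and H2-Q6 had log2 fold changes of -0.80 and -1.46, but they belong to a family of near-identical copies and their counts are uncertain. Of 18 interferon response genes, 3 were lower and 1 higher at that p (median -0.15, or -0.08 without PS mouse 34 and -0.30 without PS mouse 56), with Gbp3, an interferon-induced GTPase, at -0.70. Of 14 microglial genes, 5 were lower (median -0.14, or -0.07 without control mouse 101). Cx3cr1, the fractalkine receptor of microglia, had 1152, 941, 872 and 1041 in controls and 700, 851, 851 and 676 in PS, without overlap (-0.38, adjusted p = 0.150).

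Lcn2, an acute-phase gene of vessel and glia that glucocorticoids induce, had 84.9, 80.7, 36.9 and 75.5 normalized counts in controls and 10.3, 15.8, 44.6 and 18.4 in PS. Its log2 fold change of -1.73 (SE 0.57) did not pass (adjusted p = 0.205), and PS mouse 56 lay above control mouse 112. Next by p among the receptor's targets were Mertk, a phagocytic receptor (-0.22), and Arl4d, a small GTPase (0.34), each with an adjusted p of 0.256. The chaperone Hsp90aa1, which holds the receptor ready for hormone, lay higher in each PS animal (28119 to 31639) than in any control (21556 to 26905), with a log2 fold change of 0.26 and an adjusted p of 0.208.

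The rises with the smallest p were pseudogenes, copies of mRNAs that were pasted back into the genome. For 12 of the 13, a protein-coding gene among those tested was 97.0% to 100% identical to the pseudogene transcript. Gm12254 had no match among the tested genes at the limit used, and matches to other genes were not kept. The source genes encode proteins that cells make in large amounts, among them Hnrnpa1 and Hnrnpa3 (RNA-binding proteins), Hspa8 (a constitutive heat shock protein), Pgam1 (a glycolytic enzyme), Ptma (prothymosin alpha), Stmn1 (a regulator of microtubules) and Rpl10a (a ribosomal protein). Reads of pseudogene and source can be told apart only where the sequences differ, so the counts of both are uncertain. To show how little separates them, 60 coding bases of 4 pairs are printed from the GENCODE vM21 annotation (GRCm38, mm10), 5′ to 3′ on the strand of the transcript. Capitals mark the bases that differ within a pair. For Gm10052 and Hnrnpa1, which were the same over all 960 aligned positions, 1 line stands for both.
Gm10052 (chr9:123690118-123690177, minus strand) and Hnrnpa1 (exon 2, chr15:103241080-103241139, plus strand): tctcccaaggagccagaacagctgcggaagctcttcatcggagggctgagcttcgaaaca
Gm15459 (chr5:5782314-5782373, minus strand): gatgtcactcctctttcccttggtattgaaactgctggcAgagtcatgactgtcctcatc
Hspa8 (exon 6, chr9:40803802-40803861, plus strand): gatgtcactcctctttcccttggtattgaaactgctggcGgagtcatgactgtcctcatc
Gm6793 (chr8:112014737-112014796, minus strand): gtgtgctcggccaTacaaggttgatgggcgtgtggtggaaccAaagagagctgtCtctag
Hnrnpa3 (exon 3, chr2:75661754-75661813, plus strand): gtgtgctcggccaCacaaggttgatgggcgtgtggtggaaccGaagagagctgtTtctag
Gm9800 (chr14:8800220-8800279, minus strand): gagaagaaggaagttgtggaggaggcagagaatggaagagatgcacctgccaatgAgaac
Ptma (exon 2, chr1:86529182-86529241, plus strand): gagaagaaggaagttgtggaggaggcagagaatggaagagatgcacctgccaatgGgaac
The stretches shown hold the most differences found in any 60 coding bases within 1 exon. Over the whole alignment, Gm15459 differed from Hspa8 at 5 of 1941 positions, Gm6793 from Hnrnpa3 at 26 of 1476 and Gm9800 from Ptma at 3 of 336.

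Gm10052 had 268, 225, 288 and 200 normalized counts in controls and 457, 398, 400 and 375 in PS. All PS animals lay above all controls (log2 fold change 0.74, SE 0.10, adjusted p = 0.000837). Its source Hnrnpa1 had means of 6016 ± 319 (SD, n = 4) in controls and 6461 ± 183 in PS (0.10, adjusted p = 0.396). Gm15459 had 904, 888, 953 and 821 in controls and 1524, 1185, 1250 and 1322 in PS, again without overlap (0.56, SE 0.08, adjusted p = 0.000837). Its source Hspa8 had 37315 ± 1630 and 39955 ± 2486 (0.10, adjusted p = 0.547). These were the 2 genes whose call did not depend on any single one of the 8 animals.

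The other pseudogenes named here rose by 0.56 to 1.31 on the log2 scale. Pgam1-ps2 had 300, 314, 362 and 300 normalized counts in controls and 570, 409, 489 and 432 in PS (0.56, adjusted p = 0.0224). Gm9800 rose by 0.73, Gm6793 by 0.70, Rpl10a-ps1 by 0.73, Gm13577 by 1.07 and Gm10095 by 0.63 on the log2 scale. The largest was Gm6204, with 41.8, 31.3, 20.3 and 18.6 in controls and 88.8, 40.1, 68.6 and 84.5 in PS (1.31, SE 0.25, adjusted p = 0.0577), where PS mouse 52 fell below control mouse 101. In none of the 12 pairs did the source gene pass the threshold, and the log2 fold changes of the sources ran from -0.01 to 0.21. Over all 401 pseudogenes tested the median was 0.04, with 68 higher and 22 lower at an unadjusted p under 0.05, beside 7.2% and 6.81% of all genes tested.

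**Figure D3:**
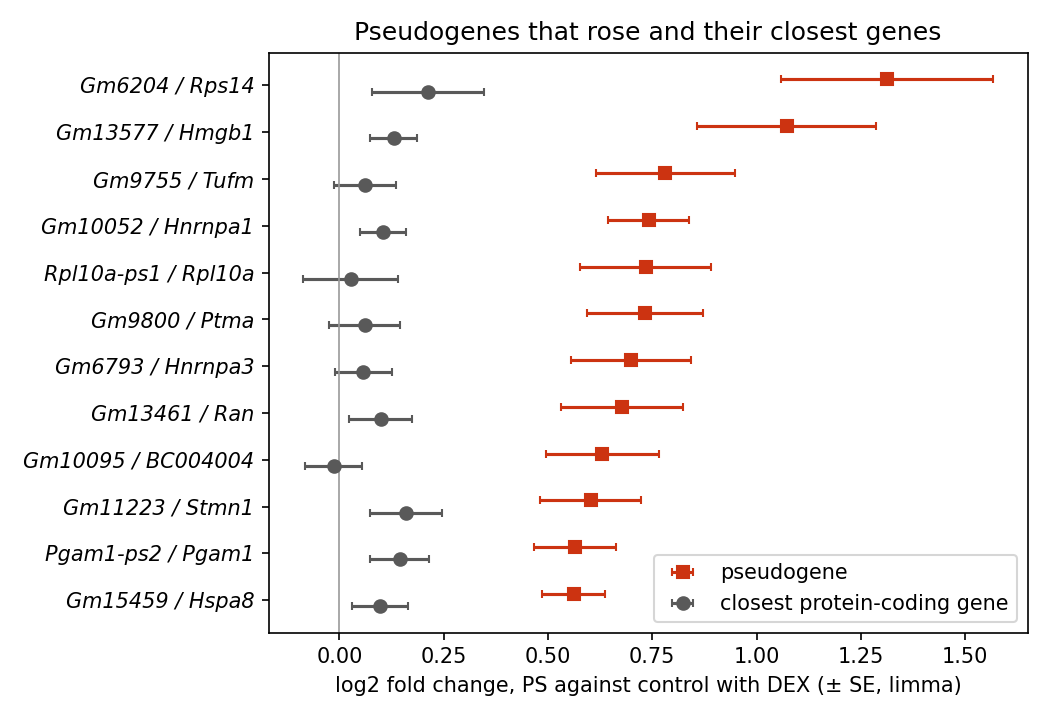
Log2 fold change of PS against control with DEX (x axis, ± SE from limma, 4 mice per group) for 12 pseudogenes that rose (squares) and the protein-coding gene closest to each in sequence (circles). Each pseudogene lies to the right of its source gene, and the source genes lie between -0.01 and 0.21.

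Among genes that are not pseudogenes, the lncRNA Gm14703 rose most of those with reads in both groups. It had 14.4, 4.82, 15.5 and 13.9 normalized counts in controls and 79.3, 31.6, 42.4 and 91.9 in PS (log2 fold change 2.23, SE 0.39, adjusted p = 0.0224). It lies on the strand opposite to Syp, which encodes the abundant synaptic vesicle protein synaptophysin, and although the libraries were strand-specific, the strand setting of the counting is not given in the sources used here. Gm17364 had 0 reads in all 4 controls and 2 to 13 recovered reads in the PS animals. Taking 3 reads in each control library as the floor, the PS mean was 2.00-fold above it, although the lowest PS animal lay under that floor. Gm17364 lies opposite to Smim13, so its counts carry the same doubt. Its adjusted p was 0.0718 by limma and 0.131 by edgeR.

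The 6 named coding genes that rose did so by small amounts. Rbm34, which encodes a nucleolar RNA-binding protein, had 473, 515, 547 and 517 normalized counts in controls and 685, 626, 666 and 595 in PS (0.33, SE 0.07, adjusted p = 0.0669). Rrp1, a factor of ribosomal RNA processing, had 7762, 7207, 7498 and 7349 in controls and 9528, 8207, 8749 and 8841 in PS (0.24, adjusted p = 0.0824). Mybpc1, a myosin-binding protein best known from slow muscle, had 175, 172, 188 and 181 in controls and 266, 263, 221 and 223 in PS (0.43, SE 0.09, adjusted p = 0.0732). Gm48752 lies opposite to Mybpc1 and Narfl opposite to Haghl, so the same doubt holds for both. It also holds for the called genes Slc2a1 (opposite to Gm12867 and Gm12868), Zfp36 (Gm44710), Gm10052 (Gm17200 and Ccr9), Gm15459 (Gm26825) and Gm6793 (Terf2ip). On their own strand, Slc2a1 overlaps Mir1957a, Rrp1 overlaps Mir6907 and Eapp, described next, overlaps Gm36262, so part of their counts is uncertain. Haghl, a relative of the glyoxalase Hagh, had 1498, 1420, 1600 and 1351 in controls and 2038, 1910, 1987 and 2019 in PS (0.44, adjusted p = 0.0999).

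Eapp, a partner of E2F transcription factors, rose by 0.25 (adjusted p = 0.0718) and Zfp94, a zinc finger gene, by 0.35 (0.0971) on the log2 scale. In each of the 6 genes, no PS value fell inside the range of the 4 controls. The next genes without overlap were Tbcc, a tubulin folding cofactor (0.50), Fam43b (0.40), the immediate early gene Ier5 (0.45) and the F-box gene Fbxo9 (0.28). Tmed9, a carrier of secretory cargo, and Surf6, a nucleolar protein, followed with 0.28 each. These 6 genes did not pass, with adjusted p values of 0.108 to 0.118.

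**Figure D4:**
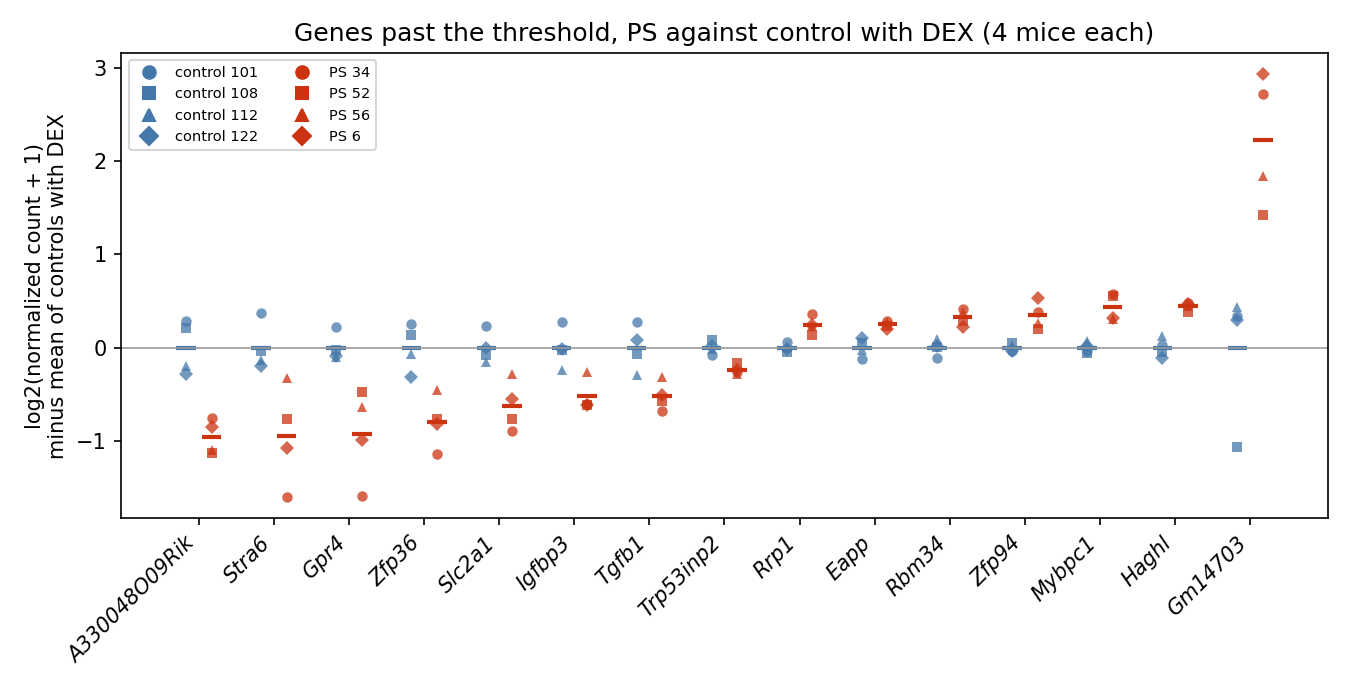
Values of the called genes that are not pseudogenes and had reads in both groups, in each of 4 controls and 4 PS animals with DEX (y axis, log2 of normalized count + 1 minus the mean of the controls, marker shape by mouse, bar at the mean of the group). The groups do not overlap in any of these 15 genes, and mouse 34 is the lowest PS animal in, among others, Stra6, Gpr4, Zfp36 and Slc2a1.

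The genes of nuclear oxidative phosphorylation, which encode the respiratory chain subunits made outside the mitochondrion, had mostly positive values. Of 91 genes, 0 passed, 84 had a positive log2 fold change, the median was 0.17 and 31 were higher at an unadjusted p under 0.05, beside 7.2% of all genes tested. In 27 of them all PS animals lay above all controls, beside 4.26% of all genes. Ndufv1, a core subunit of complex I, had 3337, 3169, 3436 and 3023 normalized counts in controls and 4525, 3743, 3963 and 4112 in PS (0.33, SE 0.09, adjusted p = 0.136). The subunits Atp5k of ATP synthase (0.52, adjusted p = 0.170) and Ndufa1 of complex I (0.50, 0.185) did not overlap between the groups either. Atp5b, the most abundant gene of the list, had a log2 fold change of 0.13. The summed level was 261520 normalized counts in PS mouse 34, 222300 to 228630 in the other PS animals and 198620 to 222000 in controls. Without mouse 34, 11 of the 91 genes were higher at that p and the median was 0.12, and without control mouse 122, 12 genes were higher. With library weights 30 of the 91 passed as higher and 1 as lower, 3 passed as higher by DESeq2, and 1 passed without control mouse 112 or PS mouse 56. Over all 14060 genes tested, 626 passed as higher and 495 as lower with library weights. By DESeq2, without control mouse 112 and without PS mouse 56, 116, 118 and 60 passed as higher.

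Of 31 mitochondrially encoded genes, 8 were lower and 2 higher at an unadjusted p under 0.05, beside 6.81% and 7.2% of all genes tested. A negative log2 fold change was found in 20 and a positive one in 11. The median was -0.16, or -0.09 without control mouse 101, the library with the highest mitochondrial percentage. In each of the 8 libraries 1 to 4 of the 31 had 0 reads, so the median does not stand for the abundant genes named next. The complex I gene mt-Nd5 had 213650, 225610, 190400 and 188720 normalized counts in controls and 145490, 155670, 179330 and 145080 in PS (-0.39, adjusted p = 0.190). The cytochrome b gene mt-Cytb (-0.42) and the oxidase gene mt-Co1 (-0.34) also did not overlap between the groups, and their log2 fold changes were 0 under quantile normalization, which gives genes of the same rank the same value. Cytosolic ribosomal proteins had a median of 0.14, with 14 of 83 higher and 0 lower at an unadjusted p under 0.05, beside 7.2% and 6.81% of all genes tested. Their median was 0.07 without PS mouse 34, 0.23 without control mouse 101 and 0.22 without PS mouse 52. Rps29 had the smallest p among them (0.61, adjusted p = 0.118).

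Of 14 myelin genes, 0 passed, all 14 had a positive log2 fold change, the median was 0.26 and 3 were higher at an unadjusted p under 0.05, beside 7.2% of all genes tested. The myelin basic protein gene Mbp had 11884, 11707, 15476 and 11730 normalized counts in controls and 14123, 16955, 13523 and 14751 in PS (0.23, adjusted p = 0.590), so that control mouse 112 lay among the PS values. Mag, an adhesion molecule of inner myelin, had a log2 fold change of 0.35 and Ermn, a cytoskeletal protein of late oligodendrocytes, one of 0.49. Of 14 astrocyte genes, 5 were lower at that p, beside 6.81% of all genes tested. Their median was -0.15, or -0.06 without control mouse 101 and -0.23 without control mouse 112. The glutamate transporter Slc1a2 had one of -0.29 and the water channel Aqp4 one of -0.23. Pyramidal and GABAergic neuron lists had medians of 0.01 and 0.05, and their signs turned with single animals left out (ranges -0.04 to 0.07 and -0.12 to 0.09). The same held for 9 striatal genes (median -0.00475, range -0.04 to 0.04), of which 0 had an unadjusted p under 0.05.

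Immediate early genes, which follow neuronal firing, had positive log2 fold changes in 17 of 22 cases. Of the 22, 0 passed, the median was 0.15 and 4 were higher and 0 lower at an unadjusted p under 0.05, beside 7.2% and 6.81% of all genes tested. The median was 0.27 without control mouse 122 and 0.09 without PS mouse 56. Arc, which regulates synaptic AMPA receptors, had 1455, 907, 1106 and 2196 normalized counts in controls and 2146, 2044, 2234 and 1848 in PS (0.62, adjusted p = 0.205). The PS animals were close together and 1 control, mouse 122, lay among them. Ier2 did not overlap between the groups (111 to 168 in controls, 175 to 211 in PS, 0.44, adjusted p = 0.2). Egr1, the transcription factor, had a log2 fold change of 0.34. Of 18 heat shock genes, 7 were higher and 1 lower at that p, beside the same shares of all genes, the lower one being Hspb1, which vessels and astrocytes express (-0.61, adjusted p = 0.173), and Dnaja1 had a log2 fold change of 0.21.

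The same contrast with saline used 8 other mice and shares no library with the one under DEX, although both rest on 1 estimate of the spread and 1 normalization. With saline, 213 genes passed (1.51% of the genes tested), 101 higher in PS (0.718%) and 112 lower (0.797%). DESeq2 called 431 genes there. With single animals left out, limma called 57 without PS mouse 2, 96 without PS mouse 28, 123 without PS mouse 62, and 90, 95 and 136 without control mice 106, 107 and 117. Olfactory bulb transcripts were present among these animals too, with 2653 normalized counts of Cdhr1 in control mouse 117 and 827 in PS mouse 2, against 68.8 to 119 in the other 6, and their part in the saline calls was not tested. Of the 213 genes, 171 (80.3%) had the same sign under DEX, beside 56.1% of all genes tested. The share was 78.4% in the 148 protein-coding ones. The median ratio of the log2 fold change under DEX to that with saline was 0.32, or 0.475 in pseudogenes and 0.274 in the rest. These genes were chosen for passing with saline, which favours large saline values, so the ratio is no measure of a weaker effect under DEX. Over all genes tested it was 0.198. Of the 213, 70 had the same sign with an unadjusted p under 0.05 under DEX, against 1 with the opposite sign. Pseudogenes were 46 of the 213, and 41 of them kept their sign. Across all 14060 genes the 2 sets of log2 fold changes had a Pearson r of 0.208, given as a description since genes are not independent replicates.

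The overlap of calls was 12 genes (0.0853% of the genes tested), 41.4% of the 29 called under DEX and 5.63% of the 213 called with saline, and all 12 had the same direction. Only Eapp and Trp53inp2 among them are protein-coding. Eapp rose by 0.28 with saline and 0.25 with DEX, and Trp53inp2 had log2 fold changes of -0.26 and -0.24. Gm10052 had 274 ± 9 (SD, n = 4) normalized counts in saline controls and 409 ± 35.9 in saline PS animals. Gm15459 rose by 0.42 with saline, Gm9800 by 0.78, Gm13577 by 1.18, Gm6793 by 0.85, Gm10095 by 0.64, Pgam1-ps2 by 0.43 and Gm6204 by 1.15. Of the other 7 falls under DEX, 0 passed with saline by limma. The log2 fold changes there were -0.24 for Slc2a1, -0.27 for Stra6, -0.09 for Gpr4, -0.16 for Igfbp3, -0.12 for Tgfb1, 0.13 for Zfp36 and 0.04 for A330048O09Rik.

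**Figure D5:**
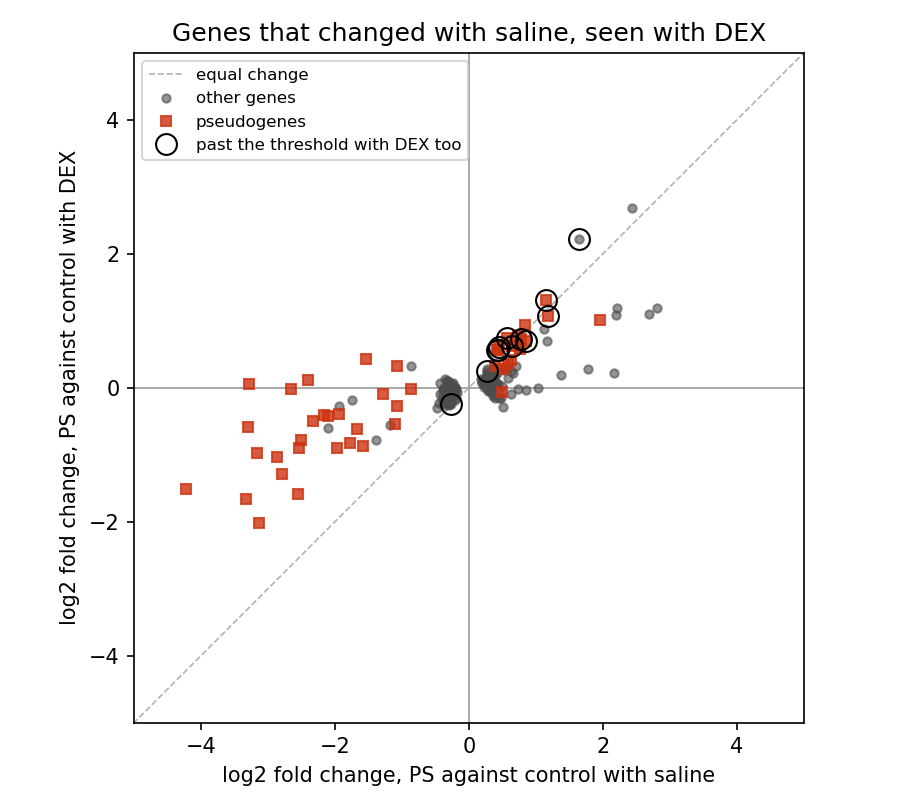
Log2 fold change of PS against control with saline (x axis) and with DEX (y axis) for the 213 genes that passed with saline, 46 of them pseudogenes (squares), with rings on the 12 that also passed with DEX and a dashed line at equal change. In 171 genes the signs are the same, and most points lie nearer to the x axis than the dashed line.

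Whether the PS effect differed between DEX and saline was tested directly, as the difference of the 2 contrasts in the same model. By limma 0 genes passed (0% of the genes tested), with 1406 at an unadjusted p under 0.05 (10%). By edgeR 0 and by DESeq2 23 genes passed. The smallest p belonged to Mybpc1, which was lower in PS with saline (-0.28) and higher with DEX (0.43), a difference of 0.71 (SE 0.13, adjusted p = 0.111). Gm8129, 2900052N01Rik, Gm8730 and Rpl35a-ps2 followed. They had log2 fold changes of -2.10, 0.45, -1.53 and -2.51 with saline and of -0.43, -0.15, 0.43 and -0.77 with DEX. For the falls under DEX, the difference was -0.92 (SE 0.25, adjusted p = 0.297) for Zfp36, -0.68 (SE 0.29, 0.443) for Stra6 and -0.38 (SE 0.18, 0.499) for Slc2a1. The endothelial list had a median of -0.04 with saline and the leptomeningeal list one of 0.40, beside -0.55 and -0.63 under DEX. Of their genes, 3 of 15 and 10 of 11 had an unadjusted p under 0.05 for the difference, beside 10% of all genes tested. The mean centred level of the leptomeningeal list was 0.65, 0.08, 0.66 and -0.46 in PS animals 2, 28, 62 and 68 with saline. With DEX it was -1.33, -0.27, 0.46 and -0.49 in PS animals 34, 52, 56 and 6. Controls ran from -0.47 to 0.22 with saline and from -0.11 to 0.61 with DEX. The part of single animals in these counts was not tested.

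AS animals with DEX were compared with the same 4 controls, so their values are not independent of those above and are set side by side only. That comparison called 122 genes (0.868% of the genes tested), of which 15 rose (0.107%) and 107 fell (0.761%). Slc2a1 had a log2 fold change of -0.88 (adjusted p = 0.00763) in AS against control and -0.62 in PS against control. The values in AS were -0.99 for Stra6, -0.71 for Gpr4, -0.62 for Igfbp3, -0.48 for Tgfb1 and -0.31 for Zfp36. Among the rises they were 0.38 for Gm10052, 0.21 for Gm15459, 0.19 for Rbm34, 0.34 for Mybpc1 and 0.73 for Gm14703. The list medians in AS were -0.78 for endothelial genes, -0.48 for leptomeningeal genes and 0.16 for nuclear oxidative phosphorylation.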

How the data were processed

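Bulk poly(A) RNA-seq of mouse PFC was analysed in 24 libraries, 1 per mouse, grouped by the sample labels. The authors trimmed reads with fastp 0.20.1, aligned them to mm10 (GRCm38) with HISAT2 2.2.1, assigned them to genes of annotation vM22 by featureCounts (Subread 2.0) and divided the counts by DESeq2 size factors, per the methods and the submitters' processing notes. The deposited signal values are therefore normalized counts, and the handling of reads that fit several genes is part of them. The libraries were strand-specific, but how the counting treated such reads and which strand setting it used is not given in the sources used here. The p-values that the authors deposited were used only to learn which 14060 of 14074 genes they had tested. Their fold changes and p-values were not used otherwise.

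Whole reads were recovered for 100% of the values (tolerance 0.01 read), from 21121869 to 59439645 per library, and 820 genes had under 10 reads in at least 1 of the 8 libraries compared and are less precise. The main test was that of limma 3.58.1 (R 4.3.3; group means and contrasts by lmFit, moderation by eBayes with trend) on log2(normalized count + 1) with 6 group means, Benjamini-Hochberg adjustment over 14060 genes and a threshold of 0.1. Alternatives were a pseudocount of 8, other gene filters, quantile normalization, fewer groups, a library size covariate, library weights, recovered reads in edgeR 4.0.16 and in DESeq2 1.42.0, a thinning of each library to 21121869 reads before edgeR, and leaving out libraries. The steps were also run on simulated counts, with the same spread for all genes and no library that stood apart. That run does not show how the steps perform on libraries such as these. Pseudogenes were matched to GENCODE vM21 transcripts with blastn.

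The members and the gene lists were chosen with earlier results of these data known. Named genes were the 12 rises and 12 falls with the smallest p among genes without overlap between the groups, filled up with genes that did not pass, the 3 largest rises and falls among pseudogenes and unnamed models, Fkbp5, Tsc22d3, Sgk1, Per1, Nr3c1 and Nr3c2, the most abundant gene and the 3 smallest p of each list, the 5 smallest p for the difference between treatments, and up to 10 genes called with both treatments. Not all of them are printed, and some items are not reported here. Cdhr1 was named after its values were seen. The 43 lists are described by counts and medians only.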

Additional observations from a re-analysis of the deposited data

Results flagged for a closer look

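In 290 groups of 4 values, 15 had 1 animal farther from the others than Dixon's limit for 4 values allows, and chance alone gives about 1 in 20. PS mouse 56 stood high in Igfbp3 (404 normalized counts), H2-Q4 (174) and the summed antigen presentation list (5944). PS mouse 34 stood high in Hsp90aa1 (31639), the summed nuclear oxidative phosphorylation list (261520) and the summed olfactory bulb list (4221 normalized counts, where the other PS animals had 193 to 207). PS mouse 6 stood low in Camk2a, a kinase of excitatory synapses (111510). Control mouse 101 stood high in Rpl10a-ps1 (225), Dbp (3603), Avp (192) and Rps29 (2530) and low in the summed protocadherin list (36141). Control mouse 112 stood high in Mbp (15476) and the summed myelin list (40958), and control mouse 108 stood low in Gm14703 (4.82).

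The 14 genes that the authors did not test hold several markers of olfactory bulb neurons. In PS mouse 34, those whose values are printed here exceeded every DEX-treated control. The others, Abi3bp, Lgr6, Pbx3, Lgr5, Sp7 and Frmd7, lay below the highest of these controls. The normalized counts in this mouse were 2021 for Cdhr1, 660 for Doc2g, 528 for Th, 510 for Eomes, 386 for Shisa8, 368 for Ms4a15, 168 for Ppm1j and 166 for Vipr2. The highest DEX-treated controls had 513.5, 120, 161.5, 143, 245, 116, 29.0 and 165.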

How the results depend on the processing

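Of the 25 called genes followed, those named above other than Gm12254, none changed direction over 480 values under the alternatives. Of these values, 201 no longer passed the threshold. Of 74 genes followed that did not pass, 9 values in 5 genes turned or lost their sign. mt-Co1 and mt-Cytb had a log2 fold change of 0 under quantile normalization. Tsc22d3 had 0.0173 with library weights and ran from -0.056 to 0.0357 with single animals left out, Sgk1 from -0.11 to 0.0539 and Nr3c1 from -0.0347 to 0.18. The list medians moved by more than 1 SD in 9 of 857 values, in 5 of the 43 lists. The 29 DEGs became 6 where the mean normalized count had to reach 100, 0 with only the groups compared, 11 with library size as a covariate, 1121 with library weights, 17 by edgeR, 221 by DESeq2, 13 by edgeR on thinned reads and 0 among protein-coding genes only, and ran from 3 to 264 with single libraries left out. Outside the groups compared, the count was 105 and 46 without AS mice 60 and 72 with DEX and 126 without AS mouse 44 with saline, all chosen after the data were seen. The split of the 29 calls, 72.4% rises, was 55.8% with library weights and 52.5% by DESeq2. It turned to mostly falls without PS mouse 56 (60 rises and 146 falls) and without control mouse 112 (118 rises and 146 falls). The count of genes whose PS effect differed between treatments, 0, became 9 with a pseudocount of 8, 5 with quantile normalization, 1 with only the groups compared, 121 with library weights and 23 by DESeq2, and ran from 0 to 3 with single libraries left out. The share of the saline DEGs of PS that have the same direction with DEX ran from 74.4% to 87.7% with single libraries left out, the latter among 57 genes without PS mouse 2 with saline. The causes of these changes were not tested. No paired analysis was possible because the mouse numbers do not recur between the groups. With 4 animals per group and 820 genes under 10 reads in at least 1 of the 8 libraries, small differences in such genes may have been missed. The smallest difference detectable at this depth was not measured.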

Other observations

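Several gene groups that the comparison did not turn on held single genes at an unadjusted p under 0.05. Among 10 markers of oligodendrocyte precursors, 4 lay entirely lower in PS than in control animals, beside 3.01% of all genes tested. Of the 10, 0 passed, 4 had a positive log2 fold change and the median was -0.06, or -0.14 without PS mouse 34, -0.03 without control mouse 112 and -0.04 without PS mouse 6. Gpr17, a receptor that marks cells on the way to myelination, had 1200, 1255, 1315 and 1499 normalized counts in controls and 996, 1072, 1054 and 966 in PS (log2 fold change -0.36, adjusted p = 0.165). Pdgfra, the growth factor receptor that defines these precursors, had a log2 fold change of -0.27 (adjusted p = 0.307).

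Among clock output genes, Dbp, a transcription factor driven directly by the clock, had 3603, 3181, 3243 and 3216 in controls and 3039, 2509, 2677 and 2523 in PS, without overlap (-0.30, adjusted p = 0.147). Per3 had a log2 fold change of -0.33 (0.266). Of 20 clock genes, 3 were lower and 0 higher at an unadjusted p under 0.05, beside 6.81% and 7.2% of all genes tested. Fezf2, which specifies deep-layer projection neurons, had 364 normalized counts in control mouse 101, 606 to 1011 in the other controls and 1003 to 1138 in PS (0.70, adjusted p = 0.272). Avp, the vasopressin gene, which is expressed in the hypothalamus and has little known expression in the cortex, had 192 normalized counts in control mouse 101, 9.53 to 38.5 in the other controls and 3.64 to 9.48 in PS (-2.18, adjusted p = 0.190).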
